A study of Homo sapiens with 21 samples.

Results

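The genes of the DNA replication machinery were followed in BJ cells, a human skin fibroblast line with a limited replicative lifespan. They are 52 genes, taken by name from the 61544 genes of the deposited count table, all passed the filter on low counts, and they fall into 12 complexes or roles, from the proteins that mark origins to those that rebuild chromatin behind the fork. Poly(A)-selected RNA was sequenced in 21 libraries, 3 in each of 7 groups. Of these, 5 groups are untreated cells at passage P3, P11, P24, P30 or P33. The other groups are cells of passage P11 that received DOX (50 ng/ml) or DMSO, the usual solvent control. DOX is doxorubicin, a drug that traps topoisomerase II on broken DNA, and the series title names a comparison of replicative with doxorubicin-induced senescence. All groups are 1 cell line, and how long DOX was given is not stated in the sources used here. The labels do not say whether the libraries of a group came from separate cultures, so the spread behind the p-values is that between these samples and may be technical. They list the molecule as genomic DNA, while the protocol in the same labels describes RNA.

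Replication starts at origins that are licensed in G1, when the origin recognition complex (ORC) with CDC6 and CDT1 loads the ring-shaped MCM2-7 helicase onto DNA. In S phase the CDC7-DBF4 and cyclin-dependent kinases turn the loaded ring into the active CMG helicase (CDC45, MCM2-7 and GINS), polymerase alpha with primase lays primers, and polymerases delta and epsilon, held to DNA by the sliding clamp PCNA, extend them. Many of these genes are known targets of the E2F transcription factors, which switch them on as cells enter S phase and leave them repressed in cells that have stopped dividing.

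Since many members are known E2F targets, their promoters were searched for letters of the E2F-type motif. RefSeq promoter windows (GRCh38.p14, from 250 bases before to 50 bases after each start) matched 45 of the 52 members by symbol, and the members without one were RPA2, DSCC1, MCM5, GINS4, RPA3, MCM4 and POLD3. The motif TTTCCCGC, searched on both strands, was in a window of 12 of the 45 members (26.7%) and of 1.98% of all 27305 genes with a window. TTTGGCGC, also on both strands, was in 9 members (20%) and in 0.795% of all genes, and in TIPIN it lay on both strands at overlapping positions. No member held both, so 21 of 45 (46.7%) held one or the other, against 2.75% of all genes and 4.34% of the 11630 tested genes with a window. The CCAAT box (both strands) was in 26 members (57.8%, against 39.7%), and TTTGAA, the core of the cell cycle homology region of late cell cycle promoters, was in 1 member, DBF4 (2.22%, against 18.2%). A match is a run of letters in a window, not a measured binding site.

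The 100 bases before a RefSeq start of 8 members are shown 5′ to 3′ along the gene, with the E2F-type motif or its reverse complement in capitals. By the gene positions of the deposited table, the stretches of CDC7, DTL and GINS2 lie inside the gene span. Those of CDCA7, ORC3 and PCNA overlap it in part. CDC7 (chr1:91501012-91501111 on the plus strand) holds TTTCCCGC on each strand, and in DTL (chr1:212035648-212035747 on the plus strand) the motif TTTGGCGC ends at the base before the start. MCM6 (chr2:135876444-135876543 on the minus strand), CDCA7 (chr2:173354772-173354871 on the plus strand), GINS2 (chr16:85688955-85689054 on the minus strand) and CDT1 (chr16:88803689-88803788 on the plus strand) hold 1 motif each in this stretch. These 6 genes were lower with DOX, whereas PCNA (chr20:5126623-5126722 on the minus strand) and ORC3 (chr6:87590035-87590134 on the plus strand), which hold 1 motif each too, were higher with it. The reverse complement GCGGGAAA is seen in genes of both directions.
CDC7: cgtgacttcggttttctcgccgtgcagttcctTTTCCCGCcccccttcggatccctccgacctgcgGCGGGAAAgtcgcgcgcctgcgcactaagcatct
DTL: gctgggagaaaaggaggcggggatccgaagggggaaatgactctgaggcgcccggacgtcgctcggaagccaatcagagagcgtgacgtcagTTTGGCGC
MCM6: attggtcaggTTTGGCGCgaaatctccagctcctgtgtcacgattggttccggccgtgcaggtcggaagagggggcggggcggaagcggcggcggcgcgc
CDCA7: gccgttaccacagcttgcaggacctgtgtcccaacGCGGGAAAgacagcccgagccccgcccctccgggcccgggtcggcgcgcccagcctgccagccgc
GINS2: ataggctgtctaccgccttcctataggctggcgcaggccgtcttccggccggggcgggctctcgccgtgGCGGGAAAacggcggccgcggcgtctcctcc
CDT1: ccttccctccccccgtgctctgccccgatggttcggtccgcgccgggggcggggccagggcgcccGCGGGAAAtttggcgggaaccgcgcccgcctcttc
PCNA: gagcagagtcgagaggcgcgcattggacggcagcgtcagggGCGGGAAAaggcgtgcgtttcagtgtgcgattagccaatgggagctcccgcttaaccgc
ORC3: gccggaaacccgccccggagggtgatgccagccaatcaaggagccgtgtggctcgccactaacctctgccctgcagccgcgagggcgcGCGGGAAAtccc

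Libraries held 12.946 to 27.194 M counts, and values are given as CPM (counts scaled to a common library size), to be read within a gene. The table was not counted alike throughout: 9427 genes are contained in the span of a same-strand gene, and 0 of them had a read in the 15 passage libraries, against 3949 in the 6 libraries with DOX or DMSO. The DOX and DMSO libraries are therefore compared with each other and not with untreated P11. Gene positions are those of the deposited table (GRCh38). The difference in counting touches FEN1 (chr11:61792911-61797238), which FADS2 (chr11:61792980-61867354) covers over 98.4% of its span, and POLA2 (chr11:65261920-65305589), which the gene model ENSG00000285816 covers entirely. FEN1 had 36 reads in all passage libraries together against 1320 in the DOX and DMSO libraries, and POLA2 had 0 against 232, so both passed the filter on low counts only through the latter, and no passage change is given for either. PRIM1 is overlapped over 48.6% of its span. All 10 fibroblast markers were at 1 CPM or more in every group, while the summed endothelial, leukocyte and melanocyte markers stayed at or under 2.66 CPM in every library. Within these sums, PTPRC was called as higher with DOX, at 1.25, 1.76 and 1.325 CPM against 0.18, 0.121 and 0.117 with DMSO. It was also called as higher at P33 than at P3, whereas VWF and PMEL were called as lower with DOX. The 6 keratinocyte markers summed to 13.45 to 14.91 CPM at P3, 22.83 to 24.63 at P33, 11.99 to 12.67 with DMSO and 14.93 to 15.7 with DOX. Most of this was KRT10, which was higher at P33 (mean 22.4 against 14.3 CPM at P3) and not called with DOX. DSG3 was called as higher in both, at 0.842, 0.612 and 1.45 CPM at P33 against 0, 0.077 and 0 at P3, and at 1.33, 0.753 and 1.43 with DOX against 0 in each DMSO library. It passed the filter on low counts only through the P33 and DOX libraries, where it was high. These calls are therefore not independent of the filter. Of the other keratinocyte markers, KRT5 had no read in any library, KRT14 and KRT1 stayed under 0.3 CPM and TP63 reached 0.703 CPM with DOX. The part of these markers in the members' changes was not tested.

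Most replication genes fell between P3 and P30, and 23 of the 52 rose again from P30 to P33. The summed level of the 52 members was 2033, 2002 and 2083 CPM at P3, 1674, 1765 and 1617 at P11, 1425, 1455 and 1397 at P24, 1164, 1164 and 1146 at P30 and 1334, 1308 and 1339 at P33. The libraries of these groups did not overlap, and P30 was the lowest. Of the 50 members other than FEN1 and POLA2, 38 had their lowest passage mean at P30 and 36 their highest at P3. In bulk RNA, fewer cycling cells and less of these transcripts per cell cannot be told apart.

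**Figure D1:**
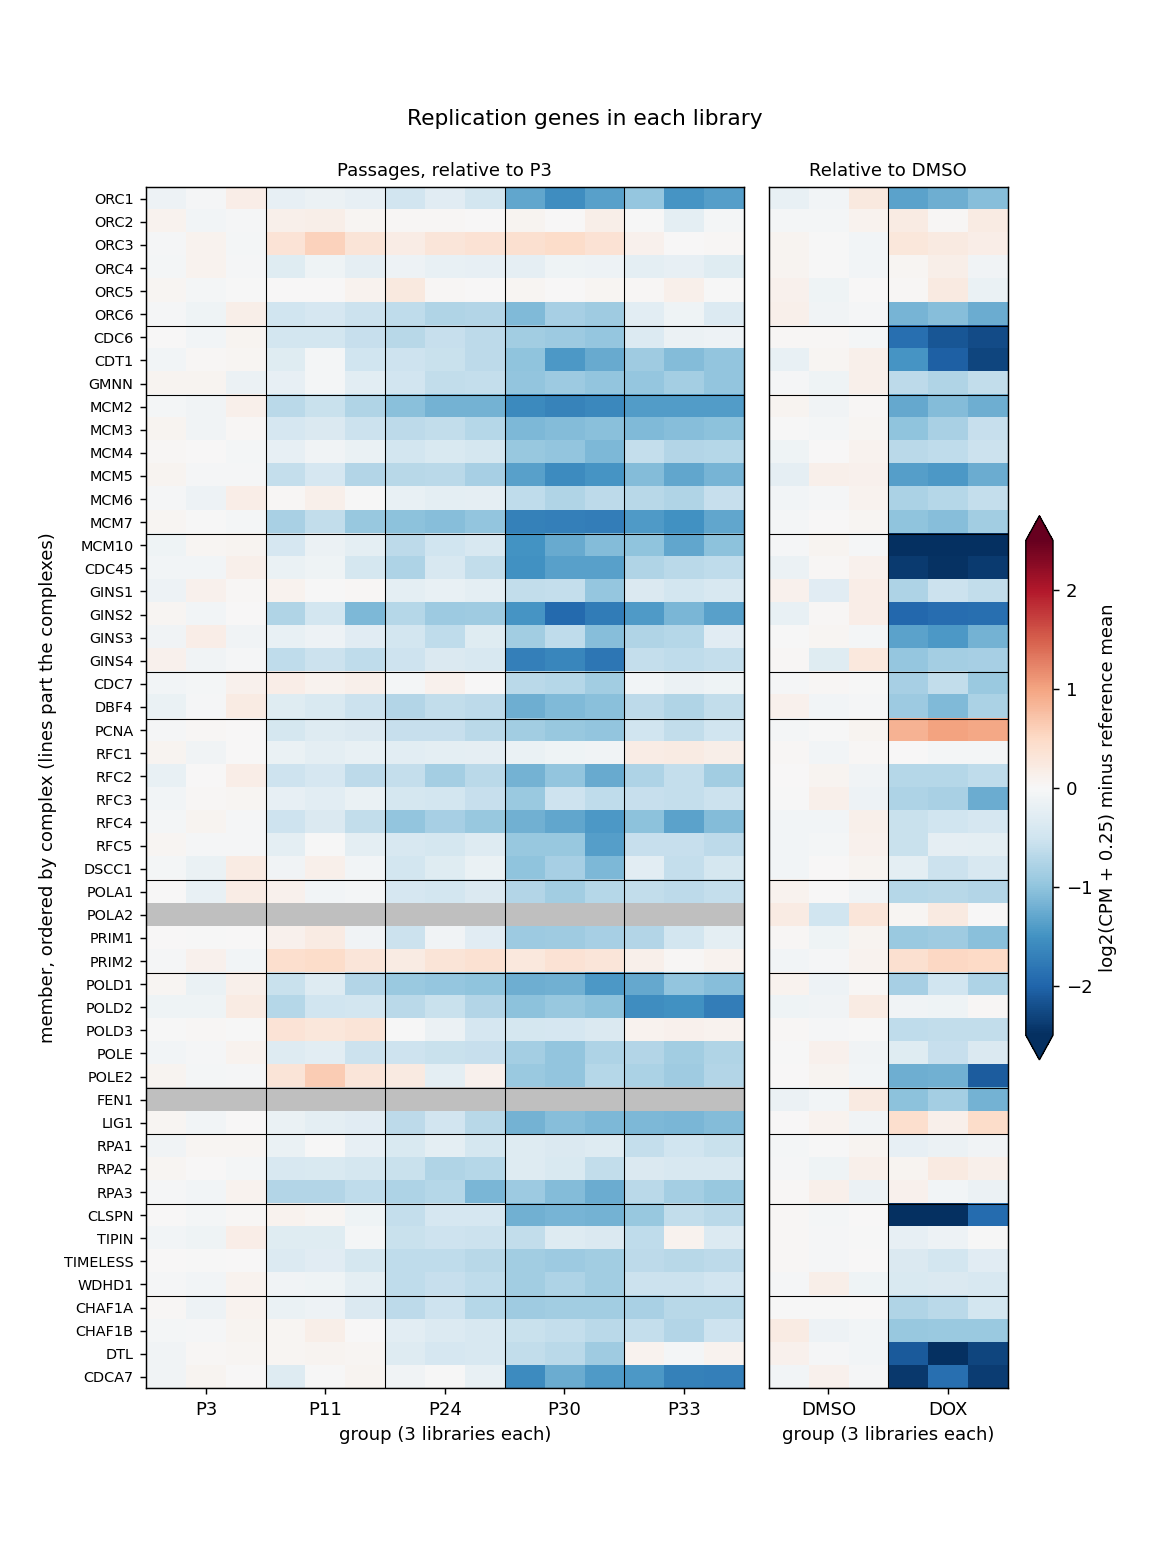
Level of each of the 52 members (rows, parted by complex) in every library (columns), as log2(CPM + 0.25) minus the mean of the reference group, which is P3 for the passage libraries and DMSO for the treated libraries; grey marks FEN1 and POLA2, whose passage counts are not usable. Blue deepens from P11 to P30 for most rows and is paler at P33, while PCNA, LIG1, PRIM2 and ORC3 are red with DOX.

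A gene is called lower or higher at an adjusted p under 0.05 in edgeR's quasi-likelihood test, with Benjamini-Hochberg adjustment over the 16821 genes tested. At P11, 25 of the 52 members were lower than at P3 and 4 were higher, beside 23.6% and 22.9% of all genes tested. At P24 the counts were 41 and 2 (27.8% and 26.6% of all genes), at P30 46 and 2 (29.6% and 29%) and at P33 42 and 1 (33.3% and 34.5%). The members' median log2 fold change against P3 was -0.21 at P11, -0.49 at P24, -0.95 at P30 and -0.65 at P33, with 23 members at least 2-fold lower at P30 and 14 at P33. The median over all genes tested was 0 in each of these 4 comparisons, which share the P3 libraries. Without FEN1 and POLA2 the counts were 45 and 2 of 50 at P30 and 41 and 1 at P33, with 22 and 13 at least 2-fold lower. All genes were not counted at this fold, so the 2-fold counts have no share beside them.

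Neighbouring passages were compared to place the fall in time. From P11 to P24, 25 members fell and 0 rose, beside 17.7% and 16% of all genes (also 0 higher at an unadjusted p under 0.05 and with DESeq2). From P24 to P30, 38 fell and 1 rose (17.1% and 18%), or 37 and 1 without FEN1 and POLA2, the riser being RPA2 with a log2 fold change of 0.25, a call lost without P24 replicate 2 (0.21) or P30 replicate 1 (0.19). From P30 to P33 the direction turned: 23 members rose and 5 fell, beside 23.6% and 24.8% of all genes. GINS4 rose 2.17-fold in that last step, and DTL, CDC45, CDC6 and ORC6 followed with rises of 1.7-fold, 1.66-fold, 1.65-fold and 1.64-fold. The 5 that fell were POLD2, ORC3, PRIM2, RPA1 and ORC2. The fall of ORC2 (log2 fold change -0.18) was lost without P30 replicate 1 or 3 or P33 replicate 2 or 3, and with DESeq2 (-0.16).

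Markers of cycling cells were also highest at P3 and lowest at P30. MKI67, a nuclear protein of cycling cells, stood at 544, 464 and 522 CPM at P3, 297, 258 and 252 at P11, 256, 247 and 266 at P24, 102, 109.5 and 108 at P30 and 158, 154 and 148 at P33. All 10 cycling markers were lower at P30 and at P33 than at P3, and all 10 were higher at P33 than at P30. Their summed level lay between 1180 and 1262 CPM at P3, between 678.6 and 795.8 at P11, between 696.8 and 720.6 at P24, between 335.2 and 343.3 at P30 and between 500.2 and 536.2 at P33, with P11 and P24 overlapping. What part the share of cycling cells had in the members' changes was not tested.

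**Figure D2:**
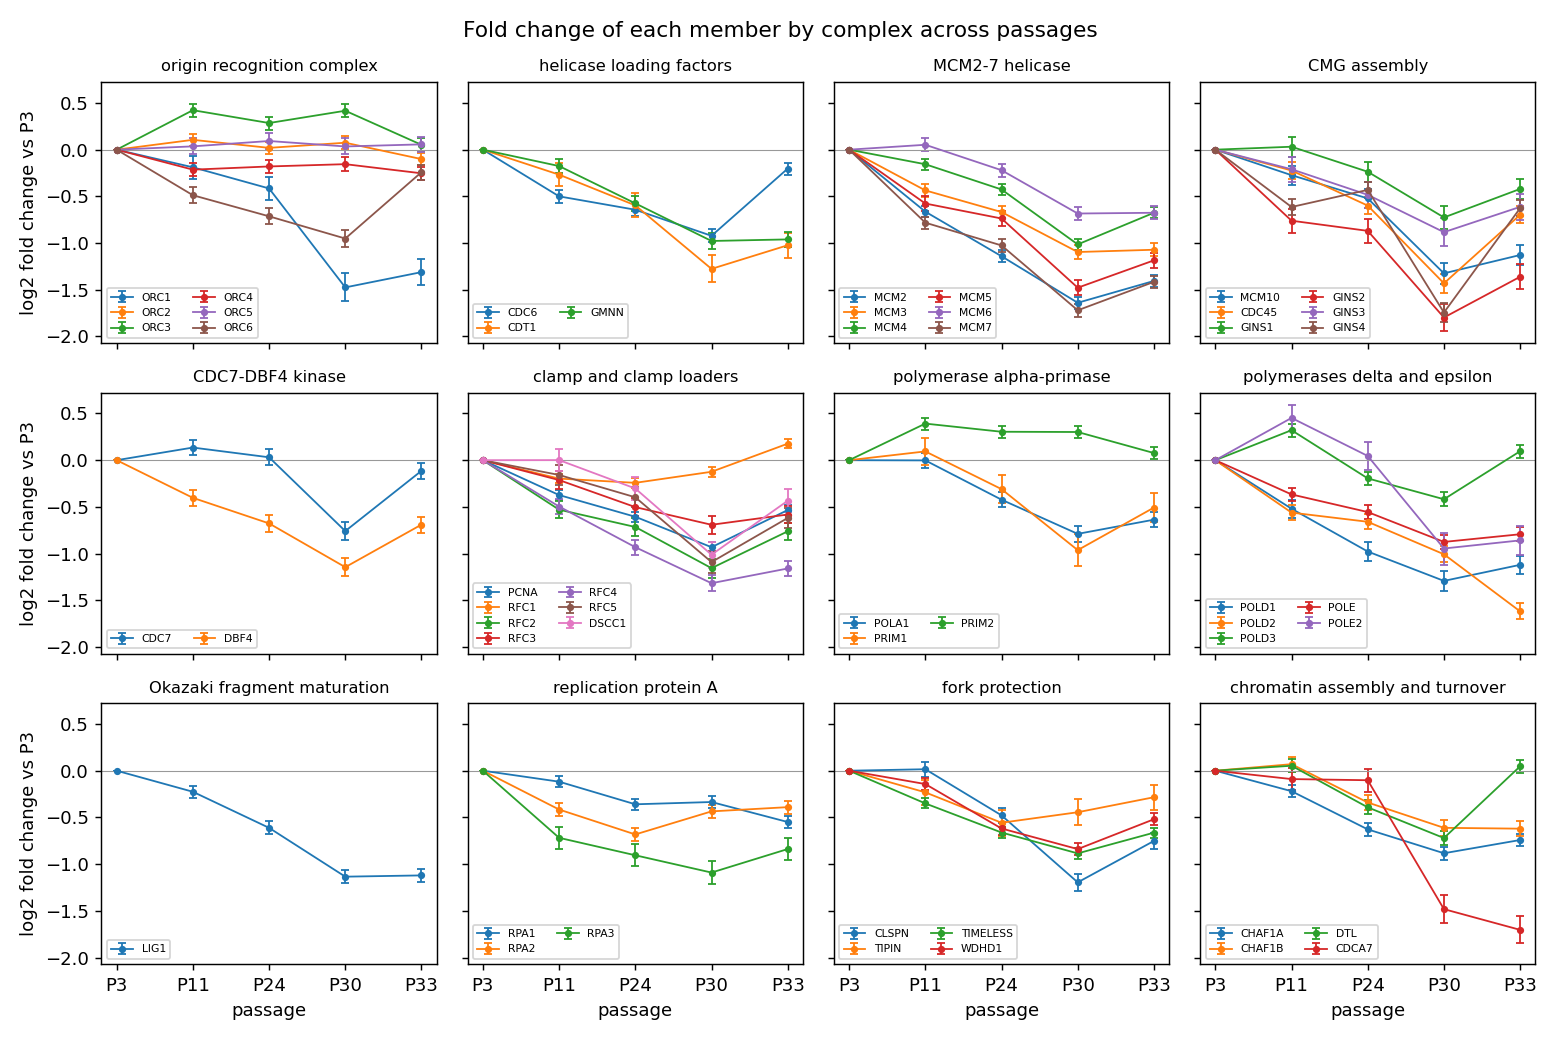
Log2 fold change against P3 (vertical axis, ± SE) at each passage (horizontal axis) for the 50 members with usable passage counts, 1 panel per complex and 1 line per member. Lines of the MCM2-7 and CMG panels lie lowest at P30, where the ORC panel divides into ORC1 and ORC6 against ORC2 to ORC5. ORC6, CDC6, CDC7, DTL and POLD3 are among the lines that end within 0.25 of the P3 level.

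The origin recognition complex, the 6-subunit ATPase that marks origins, divided by subunit. ORC1, the subunit that is itself degraded and remade in each cell cycle (chr1:52372829-52404423), was at 6.98, 7.55 and 8.63 CPM at P3, 6.63, 6.94 and 6.64 at P11, 5.46, 6.31 and 5.53 at P24, 2.98, 2.47 and 2.87 at P30 and 3.83, 2.59 and 2.8 at P33. P30 and P33 libraries overlapped with each other and lay below every library of the earlier passages. ORC1 was 2.48-fold lower at P33 than at P3 (log2 fold change -1.31, SE 0.138, adjusted p = 4.96e-10). ORC6 fell 1.93-fold at P30, and at P33 it was back within 1.18-fold of P3, a difference that was not called without P3 replicate 3 or P33 replicate 3 (log2 fold changes -0.18 and -0.17). ORC3 went the other way, 1.33-fold higher at P30 (adjusted p = 5.68e-06), with a log2 fold change of 0.05 at P33 that was not called. ORC4 was 1.19-fold lower at P33, and ORC2 and ORC5 were called at no passage against P3.

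All 3 helicase loading factors were lower at P24, P30 and P33. CDT1, which brings MCM2-7 to the ORC-bound origin (chr16:88803789-88809258), was at 7.8, 8.32 and 8.49 CPM at P3, 6.63, 7.88 and 5.75 at P11, 5.69, 5.47 and 5.14 at P24, 3.98, 2.89 and 3.25 at P30 and 4.34, 3.72 and 4 at P33. The P33 libraries lay below all P24 libraries, and CDT1 was 2.03-fold lower than at P3 (log2 fold change -1.02, SE 0.133, adjusted p = 3.99e-08). GMNN, the inhibitor that blocks CDT1 after S phase begins, fell 1.97-fold at P30 and 1.95-fold at P33. CDC6, the ATPase that works with CDT1, was at 38.8, 36.4 and 40.1 CPM at P3, 27.7, 27.8 and 25.9 at P11, 23.6, 25.7 and 24.4 at P24, 20.8, 20.2 and 19.6 at P30 and 30.3, 34.5 and 35.3 at P33. It was 1.9-fold lower at P30, rose 1.65-fold from there to P33 and ended 1.15-fold below P3, a call that was lost without P33 replicate 1 (log2 fold change -0.14).

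The MCM2-7 helicase fell as a set: 5 of 6 subunits were lower at P11 and all 6 at P24, P30 and P33, with a median log2 fold change of -1.29 at P30. The call of MCM4 at P11 was lost without P3 replicate 1 or 2, or P11 replicate 1 or 3 (log2 fold changes -0.13 to -0.15), and that of MCM6 at P24 without P3 replicate 3 (-0.14). MCM7 (chr7:100092728-100101940) was at 119, 115 and 112 CPM at P3, 65.5, 75.5 and 59.8 at P11, 56.7, 54.9 and 58.4 at P24, 35.6, 34.9 and 34.4 at P30 and 43, 39.97 and 46.8 at P33. The 5 passages did not overlap in MCM7, with P33 above P30 and below P24. It was 2.67-fold lower at P33 (log2 fold change -1.42, SE 0.0668, adjusted p = 1.97e-18), and MCM2, MCM5, MCM3 and MCM4 were 2.65-fold, 2.27-fold, 2.1-fold and 1.6-fold lower. MCM6 differed in timing and size. It was not called at P11 (log2 fold change 0.05), and it was 1.61-fold lower at P30 and 1.6-fold lower at P33. From P30 to P33, MCM4, MCM7, MCM5 and MCM2 rose, by 1.18-fold (MCM2) to 1.26-fold (MCM4), whereas MCM3 and MCM6 had log2 changes of 0.02 and 0.01 that were not called. The rise of MCM5 was not called without P30 replicate 2 (log2 fold change 0.23).

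The 6 genes of CMG assembly were all lower at P30 and at P33. GINS2, a subunit of the GINS ring that joins CDC45 to the helicase (chr16:85676198-85690073), was at 10.4, 9.59 and 10.1 CPM at P3, 5.85, 7.19 and 4.49 at P11, 5.97, 5.21 and 5.31 at P24, 3.42, 2.42 and 2.79 at P30 and 3.58, 4.38 and 3.76 at P33. It was 3.47-fold lower at P30 and 2.57-fold lower at P33 (log2 fold change -1.36, SE 0.132, adjusted p = 9.34e-11), and its P33 libraries lay below every library of P3 to P24. GINS4, another GINS subunit, was at 24.1, 21 and 21.7 CPM at P3, 14.2, 15.2 and 14.2 at P11, 15.5, 17.1 and 16.9 at P24, 6.57, 7.05 and 6.2 at P30 and 14.5, 14.1 and 14.6 at P33. Its P30 libraries lay below all its other passage libraries, and it was 3.35-fold lower than P3 there. CDC45 fell 2.7-fold at P30 and stood 1.62-fold below P3 at P33. MCM10, which activates the assembled helicase, stayed 2.19-fold below P3 at P33, and its change from P30 was not called (log2 fold change 0.20). GINS1 and GINS3 were 1.34-fold and 1.53-fold lower at P33.

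In the CDC7-DBF4 kinase, which phosphorylates the loaded MCM ring to fire origins, the subunits parted. DBF4, the regulatory subunit (chr7:87876216-87909553), was at 22.8, 25 and 29.3 CPM at P3, 20.6, 19.7 and 17.6 at P11, 15.3, 16.6 and 16.1 at P24, 10.8, 11.7 and 12.3 at P30 and 16.1, 15 and 16.5 at P33, so that the P33 libraries overlapped those of P24 and lay below P3. It was 1.61-fold lower at P33 (log2 fold change -0.69, SE 0.0859, adjusted p = 1.81e-08). CDC7, the catalytic subunit, was called against P3 at P30 and not at P11, P24 or P33. At P30 it was 1.69-fold lower, and it rose 1.56-fold from P30 to P33.

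The clamp and its loaders comprise PCNA, the ring that tethers polymerases, the 5 subunits of replication factor C that open it, and DSCC1 of an alternative loader. All 7 were lower at P30. At P33, 6 were lower and RFC1, the large subunit, was higher. RFC4 (chr3:186789880-186807058) was at 30.4, 33.1 and 30.7 CPM at P3, 21.9, 24.3 and 20.3 at P11, 15.8, 17.5 and 16.1 at P24, 13.5, 12.6 and 11.5 at P30 and 15.2, 12.2 and 14.6 at P33, and no P33 library reached the P11 range. It was 2.23-fold lower at P33 (log2 fold change -1.16, SE 0.0813, adjusted p = 4.08e-14). RFC1 (chr4:39287456-39366375) was at 131, 117 and 125 CPM at P3, 112, 105 and 109 at P11, 104, 106 and 106 at P24, 111, 115 and 117 at P30 and 142, 143 and 138 at P33. Its P33 libraries lay above all other passage libraries, 1.13-fold over P3 (log2 fold change 0.18, SE 0.0499, adjusted p = 0.00234), after being lower at P11 (log2 fold change -0.20, adjusted p = 0.00174) and at P24, its lowest passage (-0.24, adjusted p = 0.000136). It was also called as lower at P30 (-0.12), a call lost without P3 replicate 1 or 3, P30 replicate 1 or 2 (-0.09 to -0.13) or the count filter (-0.15). RFC2, RFC5, RFC3 and DSCC1 were 1.7-fold, 1.53-fold, 1.5-fold and 1.35-fold lower at P33. PCNA fell 1.91-fold at P30 and stood 1.45-fold below P3 at P33. Reads of PCNA are uncertain to the extent that its 3 named pseudogenes took or gave any.

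Polymerase alpha-primase lays the RNA-DNA primers. POLA1, its catalytic subunit (chrX:24693873-24996986), was at 21.6, 18.8 and 24.7 CPM at P3, 23.4, 20.6 and 20.7 at P11, 16, 15.6 and 16.7 at P24, 12.9, 11.7 and 13 at P30 and 14, 13.6 and 14.1 at P33, with P3 and P11 overlapping and every P33 library below P24. It was 1.55-fold lower at P33 (log2 fold change -0.64, SE 0.0828, adjusted p = 4.18e-08). The primase subunits went in opposite directions. PRIM1, the catalytic subunit, was 1.95-fold lower at P30 and 1.42-fold lower at P33, the latter not called without P33 replicate 1 (log2 fold change -0.37). PRIM2, the large subunit, was 1.31-fold higher at P11 and 1.23-fold higher at P30, and its log2 fold change of 0.08 at P33 was not called.

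Polymerases delta and epsilon extend the lagging and leading strands. From P30 to P33, 1 of their 5 subunits here rose (POLD3), 3 were not called and 1 fell, POLD2. This accessory subunit of polymerase delta (chr7:44114680-44124358) was at 47.1, 47.2 and 58.3 CPM at P3, 31, 35.6 and 36.6 at P11, 31.6, 34.4 and 30.4 at P24, 24.6, 26.1 and 24.8 at P30 and 17, 17.5 and 15 at P33. Each P33 library lay below all P30 libraries, and POLD2 was 3.07-fold lower at P33 than at P3 (log2 fold change -1.62, SE 0.0862, adjusted p = 4.47e-17) and 1.53-fold lower than at P30. POLD1, the catalytic subunit, was 2.17-fold lower at P33. POLD3 rose 1.25-fold at P11, fell to 1.34-fold below P3 at P30, and at P33 had a log2 fold change of 0.10 that was not called. POLE and POLE2 of polymerase epsilon were 1.73-fold and 1.81-fold lower at P33, and POLE2 had first been 1.37-fold higher at P11, a call lost without P11 replicate 2 (log2 fold change 0.32).

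For Okazaki fragment maturation the passage libraries measured LIG1, the ligase that seals the joined fragments, at 57.9, 53.1 and 56.4 CPM at P3, 49.9, 47.1 and 46.1 at P11, 35.3, 39.9 and 34.4 at P24, 24.4, 26.5 and 25.3 at P30 and 25.6, 25.1 and 26.2 at P33. The P30 and P33 libraries overlapped and lay below all P24 libraries, and LIG1 was 2.17-fold lower at P33 (log2 fold change -1.12, SE 0.07, adjusted p = 2.34e-15). FEN1, the nuclease that trims the fragments, met the rule for naming with 16 reads in the 3 libraries of P3 and 4 in those of P33, too few in this counting for a fold.

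Replication protein A, the trimer that coats single-stranded DNA, was lower in all 3 subunits at P24, P30 and P33. RPA3 (chr7:7636518-7718607) was at 10.2, 9.94 and 11.1 CPM at P3, 6.21, 6.16 and 6.64 at P11, 5.97, 6.26 and 4.57 at P24, 5.47, 4.79 and 4.26 at P30 and 6.45, 5.65 and 5.3 at P33. All later libraries lay below P3 and the passages from P11 on overlapped in part. RPA3 was 1.79-fold lower at P33 (log2 fold change -0.84, SE 0.114, adjusted p = 9.93e-08), RPA1 1.46-fold and RPA2 1.31-fold.

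Of the fork protection genes, which couple the helicase to the polymerases and to the checkpoint, all 4 were lower at P24 and P30 and 3 at P33. CLSPN, the adaptor through which the kinase ATR activates the checkpoint (chr1:35720218-35769978), was at 36.4, 34.6 and 37 CPM at P3, 38.5, 37.1 and 33.4 at P11, 23.6, 27 and 26.8 at P24, 15.5, 15.9 and 15.7 at P30 and 18.6, 23.3 and 22.4 at P33. P3 and P11 overlapped, P33 lay between P24 and P30, and CLSPN was 1.68-fold lower at P33 (log2 fold change -0.75, SE 0.0831, adjusted p = 1.53e-09). TIMELESS was 1.58-fold and WDHD1 1.43-fold lower at P33. TIPIN, the partner of TIMELESS, was not called at P33 (log2 fold change -0.28, adjusted p = 0.057), and its P33 libraries ran from 4.72 to 7.91 CPM. It was called as lower at P33 without P3 replicate 2 (-0.35), without P33 replicate 2 (-0.49), with the replicate block (-0.29) and without a count filter (-0.31). Its fall at P30 was not called without P30 replicate 1 (-0.36).

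In the group of chromatin assembly and turnover, CDCA7, a DNA-binding partner of the remodeler HELLS (chr2:173354820-173368997), was at 6.63, 7.43 and 7.06 CPM at P3, 5.59, 6.94 and 7.4 at P11, 6.6, 6.99 and 6.14 at P24, 2.21, 2.84 and 2.48 at P30 and 2.44, 2.02 and 1.98 at P33. P3, P11 and P24 overlapped, P30 and P33 lay below them, and CDCA7 was 3.26-fold lower at P33 (log2 fold change -1.70, SE 0.143, adjusted p = 3.13e-12). DTL, the adaptor of the ubiquitin ligase that destroys CDT1 at PCNA on DNA, was at 23.8, 25.8 and 25.9 CPM at P3, 25.9, 26.5 and 25.9 at P11, 20.03, 18.6 and 18.9 at P24, 16.2, 15.8 and 13.4 at P30 and 26.7, 24.4 and 26.9 at P33. It was 1.65-fold lower at P30, and its P33 libraries overlapped those of P3 (log2 fold change 0.05, not called). CHAF1A and CHAF1B, subunits of the histone chaperone CAF-1, were 1.67-fold and 1.54-fold lower at P33.

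**Figure D3:**
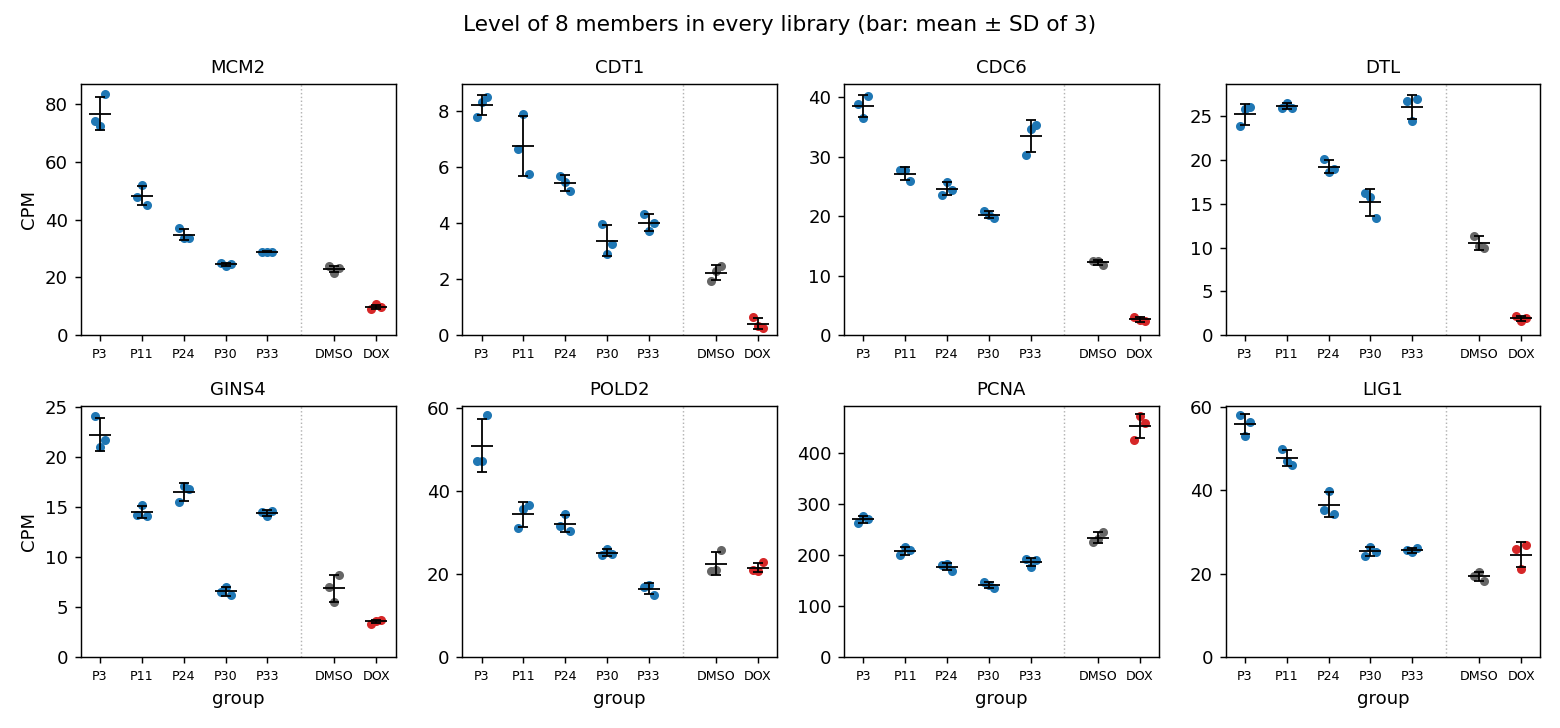
CPM of 8 members in every library (points) with the mean ± SD of 3 (bars), by passage group and, right of the dotted line, for DMSO and DOX; vertical axes start at 0 and differ between panels, and levels left and right of the line come from differently counted libraries. DTL returns to the P3 range at P33, POLD2 is lowest at P33, and PCNA and LIG1 are the panels in which DOX lies above DMSO.

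A list of 36 other replication factors, of which 34 passed the filter, included 4 that passed only through the DOX and DMSO libraries (MCM8, POLD4, RNASEH1 and PCLAF), so the passage counts are given for the other 30, a choice made after seeing the data. At P30 23 were lower and 0 higher (1 at an unadjusted p under 0.05), beside 29.6% and 29% of all genes tested. Their median log2 fold change was -0.57. At P33 19 were lower and 2 higher (33.3% and 34.5% of all genes), with a median of -0.45. All 34 had given the same counts, with medians of -0.51 and -0.37. From P30 to P33, 14 rose and 1 fell, beside 23.6% and 24.8% of all genes. DNMT1, the maintenance DNA methyltransferase, was at 312, 276 and 287 CPM at P3, 197, 188 and 175 at P11, 158, 150.3 and 152 at P24, 108, 104 and 107 at P30 and 128, 128 and 133 at P33. SSRP1 of the histone chaperone FACT was at 379, 348 and 390.5 CPM at P3, 271, 239 and 244 at P11, 218, 228 and 203 at P24, 184, 172 and 169.9 at P30 and 173, 175 and 179 at P33. Every later library lay below P3 in both genes, which were 2.25-fold and 2.12-fold lower at P33. The rises were small. DNA2, a nuclease and helicase of flap processing, was at 6.51, 6.9 and 5.4 CPM at P3, 9.04, 9.36 and 6.83 at P11, 6.77, 6.73 and 6.23 at P24, 5.52, 5.16 and 6.43 at P30 and 8.04, 7.44 and 8.39 at P33, and at P33 it was 1.26-fold above P3 (adjusted p = 0.0179), a call lost without P3 replicate 3 or P33 replicate 3 (log2 fold changes 0.24 and 0.31). RNASEH2B, a subunit of the RNase that removes ribonucleotides, was at 10.7, 11.2 and 12.8 CPM at P3, 13.9, 13.8 and 14.4 at P11, 11.5, 14 and 10.8 at P24, 10.9, 13.5 and 11.8 at P30 and 12.8, 14.4 and 14.7 at P33, with 1 P33 library inside the P3 range, and it was 1.21-fold above P3 at P33 (adjusted p = 0.00944).

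Doxorubicin was compared with DMSO at P11 to measure what changed in the same machinery. Most members were lower, while PCNA, LIG1, PRIM2 and ORC3 were higher. With DOX, 38 of the 52 members were lower and 4 higher than with DMSO, beside 20.6% and 16.7% of all genes tested. Of the members, 16 were at least 2-fold lower, a size at which all genes were not counted. Without FEN1 and POLA2, 37 of 50 were lower and 4 higher. The median log2 fold change was -0.72, against -0.01 over all genes. The summed level of the members was 1428, 1425 and 1490 CPM with DMSO and 1345, 1389 and 1408 with DOX, which did not overlap. Without PCNA, which rose, the sums were 1202, 1193 and 1244 against 918.7, 917.9 and 948.8 CPM, further apart. Taking out a gene that rose sets the sums further apart by itself, and LIG1, PRIM2 and ORC3 were kept. MKI67 was at 154, 166 and 132 CPM with DMSO and 9.96, 6.87 and 9.28 with DOX, and all 10 cycling markers were lower, with summed levels of 368.5 to 387.5 CPM with DMSO and 56.93 to 62.43 with DOX. What part the share of cycling cells had was not tested here either.

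**Figure D4:**
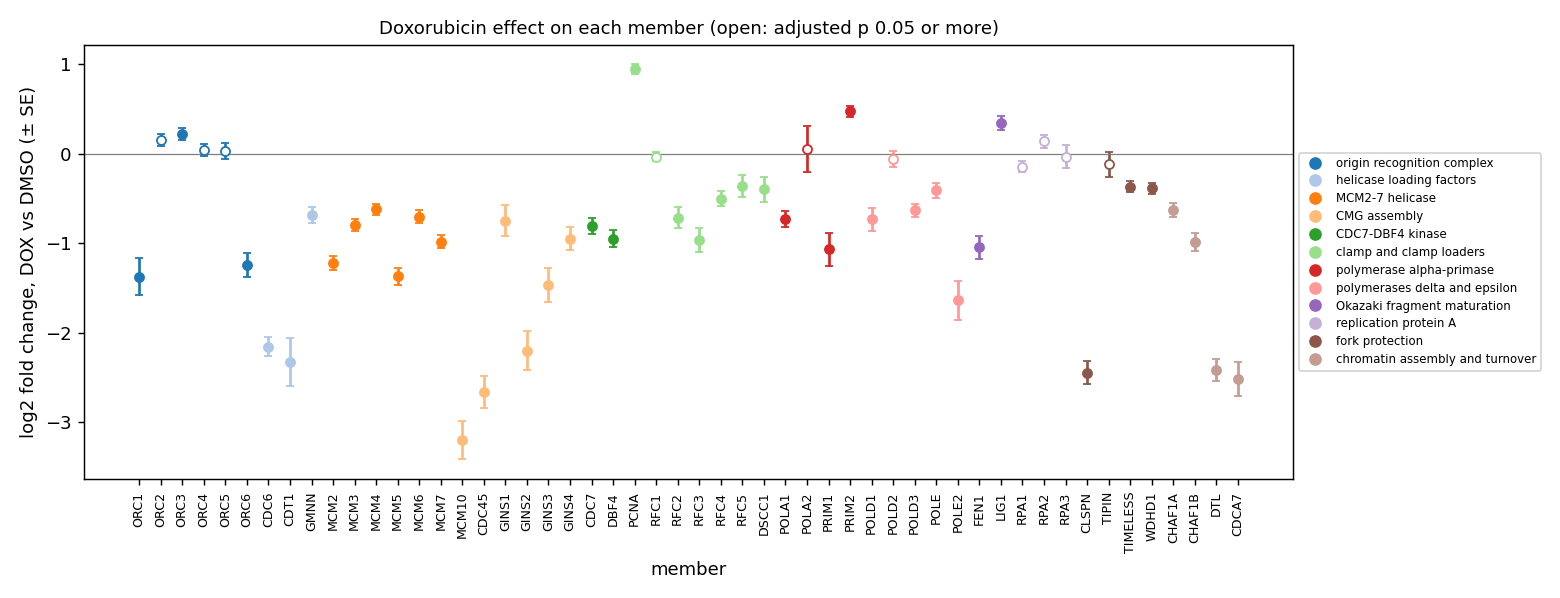
Log2 fold change of DOX against DMSO (vertical axis, ± SE) for each of the 52 members (horizontal axis), coloured by complex; open points had an adjusted p of 0.05 or more. MCM10 lies lowest at -3.2, the 4 filled points above 0 are PCNA, PRIM2, LIG1 and ORC3, and the 3 RPA subunits are open.

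Of the licensing genes, all 3 loading factors and 2 of 6 ORC subunits were lower with DOX. Among the ORC subunits ORC1 was at 2.52, 2.79 and 3.52 CPM with DMSO and 1.01, 1.1 and 1.27 with DOX, without overlap, and was 2.6-fold lower (log2 fold change -1.38, SE 0.204, adjusted p = 1.59e-06). ORC6 was 2.36-fold lower, while ORC2, ORC4 and ORC5 were not called (ORC2 was called as higher without DMSO replicate 3 or DOX replicate 2, log2 fold changes 0.20 and 0.21). ORC3 was higher, at 40.8, 38.6 and 37.3 CPM with DMSO and 47.5, 45.3 and 43.6 with DOX, which is 1.17-fold (log2 fold change 0.22, SE 0.0661, adjusted p = 0.00758), and this call was lost without DMSO replicate 3 or DOX replicate 1 (log2 fold changes 0.19 and 0.18). The loaders CDT1 and CDC6 fell further. CDT1 was at 1.94, 2.3 and 2.46 CPM with DMSO and 0.645, 0.351 and 0.255 with DOX, 5.04-fold lower (log2 fold change -2.33, SE 0.27, adjusted p = 1.46e-08). CDC6 was at 12.4, 12.6 and 11.8 CPM with DMSO and 3.15, 2.61 and 2.4 with DOX, 4.46-fold lower (adjusted p = 4.81e-17). Neither gene's groups overlapped. GMNN was 1.61-fold lower.

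All 6 MCM2-7 subunits were lower with DOX, by 1.54-fold (MCM4) to 2.58-fold (MCM5). MCM5 (chr22:35400134-35425431) was at 26.5, 33.9 and 33.3 CPM with DMSO and 11.8, 11.3 and 12.9 with DOX, with the lowest DMSO library above every DOX library (log2 fold change -1.37, SE 0.0959, adjusted p = 1.49e-13). All 6 CMG assembly genes were lower too, with a median log2 fold change of -1.83. MCM10 (chr10:13161558-13211110) was at 4.24, 4.55 and 4.28 CPM with DMSO and 0.444, 0.401 and 0.561 with DOX, 9.21-fold lower (log2 fold change -3.20, SE 0.216, adjusted p = 5.75e-14), the largest fall among the members. CDC45 was 6.36-fold and GINS2 4.61-fold lower, and GINS3, GINS1 and GINS4 were 2.76-fold, 1.68-fold and 1.93-fold lower. Both kinase subunits were lower, CDC7 1.75-fold and DBF4, at 23.1, 20.3 and 20.9 CPM with DMSO and 11.3, 9.84 and 12.2 with DOX, 1.93-fold (log2 fold change -0.95, SE 0.0939, adjusted p = 5.04e-10).

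PCNA went against most of the machinery. It was at 226, 232 and 246 CPM with DMSO and 426, 471 and 459 with DOX, with each DOX library above each DMSO library, and it was 1.93-fold higher (log2 fold change 0.95, SE 0.0529, adjusted p = 5.31e-16). Of its loaders, RFC2, RFC3, RFC4, RFC5 and DSCC1 were lower and RFC1 was not called (log2 fold change -0.03). RFC3 (chr13:33818069-33966558) was at 5.86, 6.43 and 5.4 CPM with DMSO and 3.35, 3.26 and 2.35 with DOX, 1.96-fold lower (log2 fold change -0.97, SE 0.137, adjusted p = 6.81e-07). The falls of RFC5 and DSCC1, 1.28-fold and 1.32-fold, were not called in a fit on the DOX and DMSO libraries alone, nor for RFC5 without DMSO replicate 3 or DOX replicate 1, nor for DSCC1 without DMSO replicate 2 or 3, or DOX replicate 2 or 3. Their log2 fold changes in these settings were -0.25 to -0.34 for RFC5 and -0.33 to -0.39 for DSCC1.

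Among the polymerases, the primase subunits parted as they had at P30. PRIM1 (chr12:56731296-56752374), which overlaps other genes on its strand, was at 2.98, 2.67 and 3.05 CPM with DMSO and 1.41, 1.46 and 1.27 with DOX, 2.1-fold lower (log2 fold change -1.07, SE 0.186, adjusted p = 2.06e-05). PRIM2 (chr6:57314805-57646850) was at 30.1, 30.7 and 33.5 CPM with DMSO and 41.5, 44.9 and 44.4 with DOX, 1.39-fold higher (log2 fold change 0.47, SE 0.0657, adjusted p = 4.88e-07). The groups overlapped in neither. POLA1 was 1.66-fold lower, and POLA2, at 2.12, 1.21 and 2.29 CPM with DMSO and 1.9, 2.16 and 1.83 with DOX, was not called. POLE2 (chr14:49643555-49688422) was at 2.98, 3.09 and 2.82 CPM with DMSO and 1.13, 1.15 and 0.51 with DOX, 3.12-fold lower (log2 fold change -1.64, SE 0.222, adjusted p = 3.00e-07), and POLD1, POLD3 and POLE fell 1.66-fold, 1.55-fold and 1.33-fold. POLD2 was at 20.9, 21 and 25.7 CPM with DMSO and 21.1, 20.7 and 22.8 with DOX, which overlapped (log2 fold change -0.06, not called).

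The nuclease and the ligase that finish Okazaki fragments also went apart. FEN1 was at 13.7, 14.4 and 17.8 CPM with DMSO and 7.34, 8.28 and 6.52 with DOX, 2.07-fold lower (log2 fold change -1.05, SE 0.126, adjusted p = 4.83e-08). LIG1 (chr19:48115445-48170603) was at 19.5, 20.5 and 18.2 CPM with DMSO and 25.9, 21.2 and 26.9 with DOX, 1.27-fold higher (log2 fold change 0.35, SE 0.079, adjusted p = 0.000676), and the nearest libraries of the groups were 20.5 and 21.2 CPM. None of the 3 RPA subunits was called with edgeR or DESeq2 (1, RPA1, was lower at an unadjusted p under 0.05), with log2 fold changes of -0.14, 0.14 and -0.03 for RPA1, RPA2 and RPA3. RPA1 was called as lower with the replicate block (-0.15) or without DOX replicate 3 (-0.18), and RPA2 as higher without DMSO replicate 3 (0.20).

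The checkpoint and turnover genes held some of the largest falls. CLSPN was at 15.3, 14.4 and 15.1 CPM with DMSO and 2.22, 2.36 and 3.72 with DOX, 5.46-fold lower (log2 fold change -2.45, SE 0.13, adjusted p = 1.41e-16), while TIMELESS and WDHD1 were 1.29-fold and 1.31-fold lower and TIPIN was not called. CDCA7 was at 4.51, 5.15 and 4.64 CPM with DMSO and 0.686, 1.1 and 0.714 with DOX, 5.72-fold lower (log2 fold change -2.52, SE 0.191, adjusted p = 1.18e-12). DTL was at 11.4, 10.2 and 9.92 CPM with DMSO and 2.26, 1.66 and 1.94 with DOX, 5.33-fold lower (adjusted p = 4.77e-17). In none of CLSPN, CDCA7 and DTL did the groups overlap. CHAF1A and CHAF1B were 1.55-fold and 1.99-fold lower.

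Of the 34 other replication factors, 20 were lower with DOX and 0 higher (0 also at an unadjusted p under 0.05). Of all genes tested, 20.6% were lower and 16.7% higher. The median log2 fold change of the 34 was -0.35. ASF1B, a histone chaperone of S phase, was at 1.4, 0.91 and 0.645 CPM with DMSO and 0.0807, 0 and 0.153 with DOX, 12.2-fold lower (adjusted p = 4.06e-07). PCLAF, a PCNA-binding protein, was at 1.26, 1.15 and 1.35 CPM with DMSO and 0.323, 0.201 and 0.051 with DOX, 6.09-fold lower (adjusted p = 5.35e-06). The groups did not overlap in either gene, but the DOX libraries held only 5 reads of ASF1B and 13 of PCLAF, so these fitted folds are imprecise. PCLAF, which is among the 20 lower, passed the filter on low counts only through the DMSO libraries, where it was high. Its fall is therefore not independent of the filter.

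The DOX effect and the P33 effect rest on different libraries, so they were set against each other gene by gene. Their baselines are unlike: P3 for the P33 effect, and DMSO cells of P11 for the DOX effect. In untreated cells, 25 of the 52 members were already lower at P11 than at P3. What part the starting passage had in the differences below was not tested. Of the 50 members other than FEN1 and POLA2, 34 were lower in both, which is 82.9% of the 41 lower at P33 and 91.9% of the 37 lower with DOX. Over all genes tested, 1933 were lower in both, which is 34.5% of the 5607 lower at P33 and 55.9% of the 3461 lower with DOX. LIG1 and PCNA were lower at P33 and higher with DOX. ORC4, POLD2, RPA1, RPA2 and RPA3 were lower at P33 and not called with DOX, while CDC7, DTL and POLD3 were lower with DOX and not called at P33. ORC3 and PRIM2 were higher with DOX and not called at P33, RFC1 was higher at P33 and not called with DOX, and ORC2, ORC5 and TIPIN were called in neither.

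The test of the difference between the effects called 15 of the 52 members as more negative with DOX and 15 as more positive, beside 25.4% and 25.8% of all genes tested, so the members differed between the effects about as often as genes at large did. By role, all 3 RPA subunits were called as more positive with DOX. In contrast, 4 of 6 CMG assembly genes and 2 of 3 loading factors were more negative and none of those 9 more positive. However, the loading factor GMNN was called as more positive without P3 replicate 3, DMSO replicate 3 or DOX replicate 2 (0.34, 0.335 and 0.31). GINS4 was called as more negative without P3 replicate 1 or DMSO replicate 2 (-0.39 and -0.45). The MCM2-7 helicase had 2 of 6 subunits more positive and 4 not called, beside the 25.8% of all genes that were more positive. Of the MCM2-7 subunits, MCM3 lost its call without P3 replicate 1 or DOX replicate 3 (0.24 and 0.16). MCM5, otherwise not called, was called as more negative without DMSO replicate 1 (-0.30). The largest differences downward were in DTL (log2 fold change -2.46, SE 0.143, adjusted p = 1.86e-15), MCM10 (-2.08), CDC45 (-1.97), CDC6 (-1.95) and CLSPN (-1.70). Upward they were in POLD2 (log2 fold change 1.56, SE 0.126, adjusted p = 4.69e-12), PCNA (1.48) and LIG1 (1.47). For MCM2, with log2 fold changes of -1.41 at P33 and -1.22 with DOX, the difference of 0.18 ± 0.103 (SE) was not called. For ORC1 the difference was -0.06 ± 0.242 (SE), also not called.

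**Figure D5:**
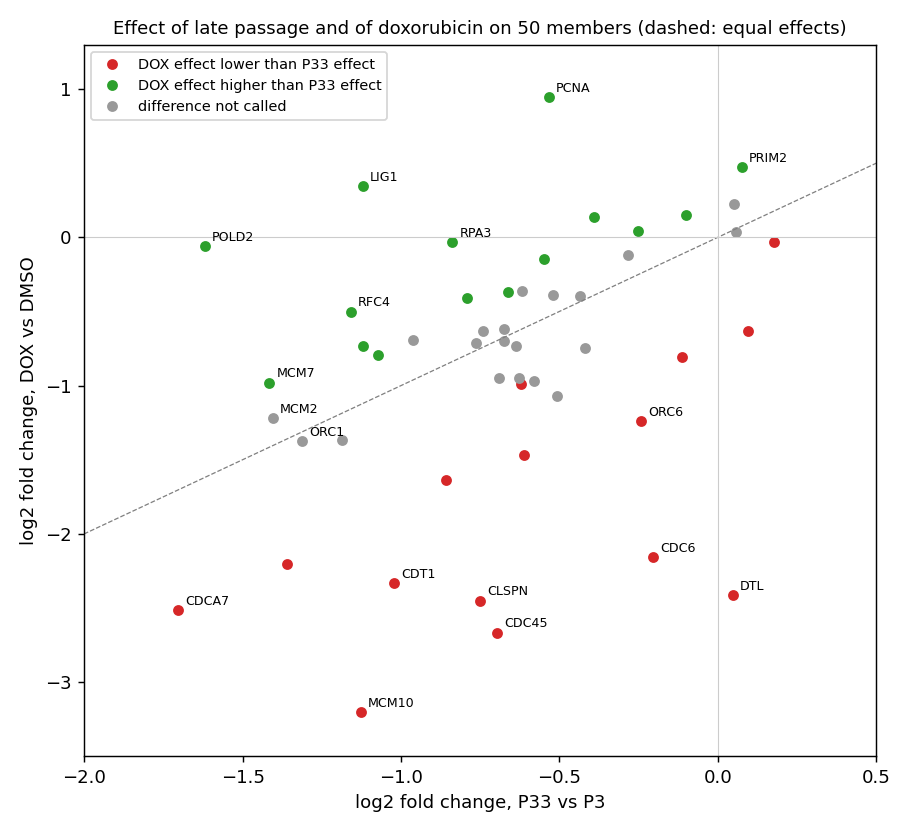
Log2 fold change of DOX against DMSO (vertical axis) beside that of P33 against P3 (horizontal axis) for the 50 members with usable counts in both; the dashed line marks equal effects, and colour shows whether the difference was called. DTL (P33 effect 0.05) and CDC6 (P33 effect -0.20) lie far under the line, while POLD2, LIG1 and PCNA lie above it.

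The E2F-type motifs shown for 8 promoters were in 17 of 33 matched members lower with DOX (51.5%), in 3 of 4 that were higher (ORC3, PCNA and LIG1) and in 1 of 8 not called (12.5%). At P30 they were in 20 of 39 members lower (51.3%), 1 of 2 higher and 0 of 4 not called. At P33 they were in 17 of 36 lower (47.2%), 0 of 1 higher and 4 of 8 not called (50%), the latter including DTL and CDC7. FEN1 and POLA2, which held neither motif, are among these members, FEN1 as lower and POLA2 as not called in each comparison. Their passage counts are not usable, so the passage shares are inexact to that extent. Gene span, which the choice of members did not use, is given beside the calls as a description only. The 41 members lower at P33 had a median span of 31.6 kb (range 5.5 to 303.1). The 8 not called had a median of 74.6 kb (24.9 to 332.0). With DOX the medians were 28.4 kb for the 38 lower (4.3 to 303.1), 62.5 kb for the 10 not called (9.7 to 91.2) and 66.3 kb for the 4 higher (11.7 to 332.0). The ranges thus overlapped, and spans by call over all genes were not taken. Spans run from first to last base of a gene, introns included, and transcript lengths were not used here.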

How the data were processed

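RNA from BJ fibroblasts was sequenced in 21 libraries, 3 in each of 7 groups. The authors deposited raw read counts per gene for all libraries in 1 table, with gene positions. Per the submitters' processing notes, FastQC 0.11.9, cutadapt 3.3, HISAT2 2.1.0, SAMtools 1.11, Subread, featureCounts 2.0.1 and DESeq2 1.34.0 were used, with the builds hg38 and GRCh38.p13. The strand and overlap settings of the counting are not given in these sources.

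Totals were 12.946 to 27.194 M counts per library. Genes with too few counts were removed by edgeR's filterByExpr (minimum count 10), which left 16821 of 61544. A single quasi-likelihood fit over all libraries (edgeR 4.0.16, limma 3.58.1, R 4.3.3) used TMM scaling (factors 0.899 to 1.13), a mean per group and no covariates, leaving 14 residual degrees of freedom, and the biological coefficient of variation was 5.48%. All 9 comparisons were two-sided, with Benjamini-Hochberg adjustment over all genes tested within a comparison. The scripts were tested on simulated data.

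The 52 members and the gene lists were chosen with earlier results of these data known. Values in every library are given for the member with the largest called change in each complex at P33 and with DOX, for members called against the majority, for the 2 largest called rises and falls among other replication factors, and for MKI67. CDC6, DTL, GINS4, POLA2 and, among the passages, LIG1, and with DOX POLD2, were added after their values were seen.

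Alternatives were DESeq2 1.42.0 (size factors, and its Wald test), no count filter, at least 1 CPM in 3 libraries, the replicate number as a block, the passage or the DOX and DMSO libraries alone, and leaving out each library. Deviations of libraries with the same number correlated at -0.077 to 0.041, so numbers were not taken as pairs. No replicates were alike within sampling noise (chi-square per degree of freedom at least 2.692).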

Additional observations from a re-analysis of the deposited data

How the results depend on the processing

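No member reversed direction while called in any setting run, and the members' counts of lower and higher calls stayed within 1.5 times of those given, with 2 exceptions. From P11 to P24, fitting the passage libraries alone called 1 member as higher (GINS4) where 0 had been called. From P24 to P30, leaving out a library gave 0 to 1 members higher. For P33 against P3, 41 to 43 members were lower across the other settings and 40 to 42 when a library was left out, and for DOX against DMSO 36 to 39 and 36 to 38. The labels number the replicates alike in every group. With the replicate block, 43 members were lower at P33 (TIPIN gained) and 39 with DOX (RPA1 gained), 24 fell from P11 to P24 (PRIM1 lost), and the difference between the effects called 14 as more positive (POLD1 lost). The block changed no other member's call. PRIM1, GINS1, GINS3, ORC1, CDT1 and DSCC1 are thinly counted, and calls of the first 2 between neighbouring passages were lost in several settings. Counts of FEN1 and POLA2 in the passage libraries, and levels across the passage and the DOX and DMSO libraries, are limited by the difference in counting.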
